A study of Rattus norvegicus with 10 samples.

Results

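Acute-phase plasma proteins are made by hepatocytes and released into the blood, where their levels change during inflammation. The group described here holds 10 genes listed by name, Hp, Hpx, Cp, Lcn2, Lbp, Crp, Saa4, Orm1, Serpina3n and A2m. The rule that lists them uses no measured value, but they were chosen with earlier results of these data known. A probe set, the group of oligonucleotides that measures a transcript on the array, was counted for a gene where the platform annotation gave it exactly 1 symbol. This gave 11 probe sets for 9 of the 10 genes, among 31042 probe sets for 14217 named genes on the array. Saa4, a serum amyloid A protein made constitutively in liver, was the exception, because its probe set carries 2 symbols, Saa4 and Hps5, and no value is given for it.

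Liver RNA was measured on 1 Affymetrix array per animal in 5 mulberry rats and 5 control rats of the Wistar/ST stock, and the labels describe a separate liver for each array. Both groups ate a high-fat diet and received a carboxymethylcellulose suspension by gastric probe after fasting overnight, in which mulberry rats got dried leaf powder, 500 mg for each kg of body weight a day, and control rats got 0 mg. Livers were taken after 7 weeks from anaesthetised rats killed by bleeding and were kept in RNAlater. Sex and age are not given in the sources used here, and no rats on another diet were analysed here.

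The acute-phase response of the liver is started mainly by interleukin-6 and interleukin-1 from macrophages. Interleukin-6 acts through its receptor and the shared subunit gp130 on the transcription factor STAT3, interleukin-1 acts through NF-kB, and the C/EBP factors and glucocorticoids add to both. Positive acute-phase proteins increase in plasma and negative ones, such as albumin and transthyretin, decrease. In the rat, A2m is known for strong induction from a low resting level, whereas Crp is abundant in rat plasma also without inflammation.

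Promoter sequences of 250 bases before the transcription start were taken from RefSeq on assembly GRCr8 and were found for 6 of the 9 genes, Hpx, Cp, Lcn2, Crp, Orm1 and Serpina3n. Those of Serpina3n, Orm1 and Lcn2 are shown for their STAT3 or NF-kB letters, and those of Hpx and Crp because the levels of these genes went together between rats, as described below. Capitals mark every match, on either strand, to a STAT3 element (TTCNNNGAA), a C/EBP element (TTNNGNAA) or an NF-kB element (GGNNNTTCC), and no 2 kinds of match overlapped.
Serpina3n chr6:129088142-129088391 (plus strand): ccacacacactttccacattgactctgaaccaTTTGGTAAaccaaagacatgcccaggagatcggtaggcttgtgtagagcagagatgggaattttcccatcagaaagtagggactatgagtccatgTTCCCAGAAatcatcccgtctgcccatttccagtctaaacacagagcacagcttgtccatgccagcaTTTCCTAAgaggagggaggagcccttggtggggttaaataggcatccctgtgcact
Orm1 chr5:81788259-81788508 (plus strand): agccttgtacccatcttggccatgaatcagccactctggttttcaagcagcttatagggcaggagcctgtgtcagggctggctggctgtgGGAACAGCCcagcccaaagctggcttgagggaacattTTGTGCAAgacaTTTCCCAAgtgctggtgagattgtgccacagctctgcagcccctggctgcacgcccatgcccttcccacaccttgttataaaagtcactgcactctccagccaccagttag
Lcn2 chr3:36081781-36082030 (minus strand): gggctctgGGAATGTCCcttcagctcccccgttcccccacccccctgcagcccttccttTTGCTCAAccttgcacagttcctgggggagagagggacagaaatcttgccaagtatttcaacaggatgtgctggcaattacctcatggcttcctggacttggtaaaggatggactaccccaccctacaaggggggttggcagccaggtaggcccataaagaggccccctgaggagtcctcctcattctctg
Hpx chr1:169352156-169352405 (minus strand): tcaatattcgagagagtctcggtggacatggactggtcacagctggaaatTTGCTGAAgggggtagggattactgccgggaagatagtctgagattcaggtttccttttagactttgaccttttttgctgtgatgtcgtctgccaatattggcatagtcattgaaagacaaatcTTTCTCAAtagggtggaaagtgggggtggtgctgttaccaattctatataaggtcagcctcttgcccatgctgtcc
Crp chr13:87693812-87694061 (plus strand): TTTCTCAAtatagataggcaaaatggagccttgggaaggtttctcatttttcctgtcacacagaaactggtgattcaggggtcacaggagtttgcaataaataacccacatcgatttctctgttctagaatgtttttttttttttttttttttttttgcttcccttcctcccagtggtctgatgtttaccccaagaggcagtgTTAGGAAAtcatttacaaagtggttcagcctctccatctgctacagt

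The C/EBP letters were found in 6 of these 6 promoters, against 37.2% of 33469 rat promoters of the same length. In Orm1 they read TTGTGCAA and TTTCCCAA, starting 123 and 111 bases before the start, and in Cp, whose sequence is not shown, TTGTGCAA stood 72 bases before it. The STAT3 letters were found in Serpina3n, as TTCCCAGAA 123 bases before the start, and in 7.67% of all promoters. The NF-kB letters were found in Orm1 and Lcn2, and in 15.4% of all promoters. A match describes these windows and is not a binding site.

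No acute-phase gene passed the test between mulberry and control livers. Of the 9 genes with a probe set, 8 passed the filter on low values, and all 8 had a slightly higher mean in mulberry rats on their brightest probe set, with log2 differences from +0.016 for Hpx, which changed sign under quantile normalization (-0.020) or a median shift of the arrays (-0.011), to +0.28 for Lcn2. The within-group SD was larger than the difference for each of the 8 genes. The median difference of the 8 genes was +0.066, against +0.0075 over all probe sets tested. It was +0.019 without mulberry rat 4, +0.019 without mulberry rats 1 and 4 and control rat 3 together and +0.038 after a median shift of the arrays, and +0.099 without control rat 3. A higher mulberry mean was found for 9 of 10 tested probe sets of these genes and for 52.5% of all 18625 probe sets tested. The 8 genes were read on the same 10 arrays, so their differences are not independent of each other.

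With limma, a linear model per probe set whose p-values were adjusted (Benjamini-Hochberg) over all 18625 probe sets, 0 of the 10 tested probe sets of these genes passed an adjusted p of 0.05, and 0% of all probe sets did (adjusted p = 0.9999 for each of the 10). At an unadjusted p under 0.05 there were 0 of 10, against 1.74% of all probe sets. The ranges of the 2 groups overlapped for 11 of 11 probe sets, while they did not overlap for 0.344% of all probe sets tested. The exact permutation test over 252 assignments of 5 and 5 rats, which can go no lower than 0.00794, gave unadjusted p between 0.0714 and 0.778 for the 11 probe sets. A p that misses the threshold does not show that the levels are alike, and the intervals below give the sizes the data allow. RNA from whole liver pieces was measured, so fewer cells of a type and less RNA per cell cannot be told apart.

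**Figure D1:**
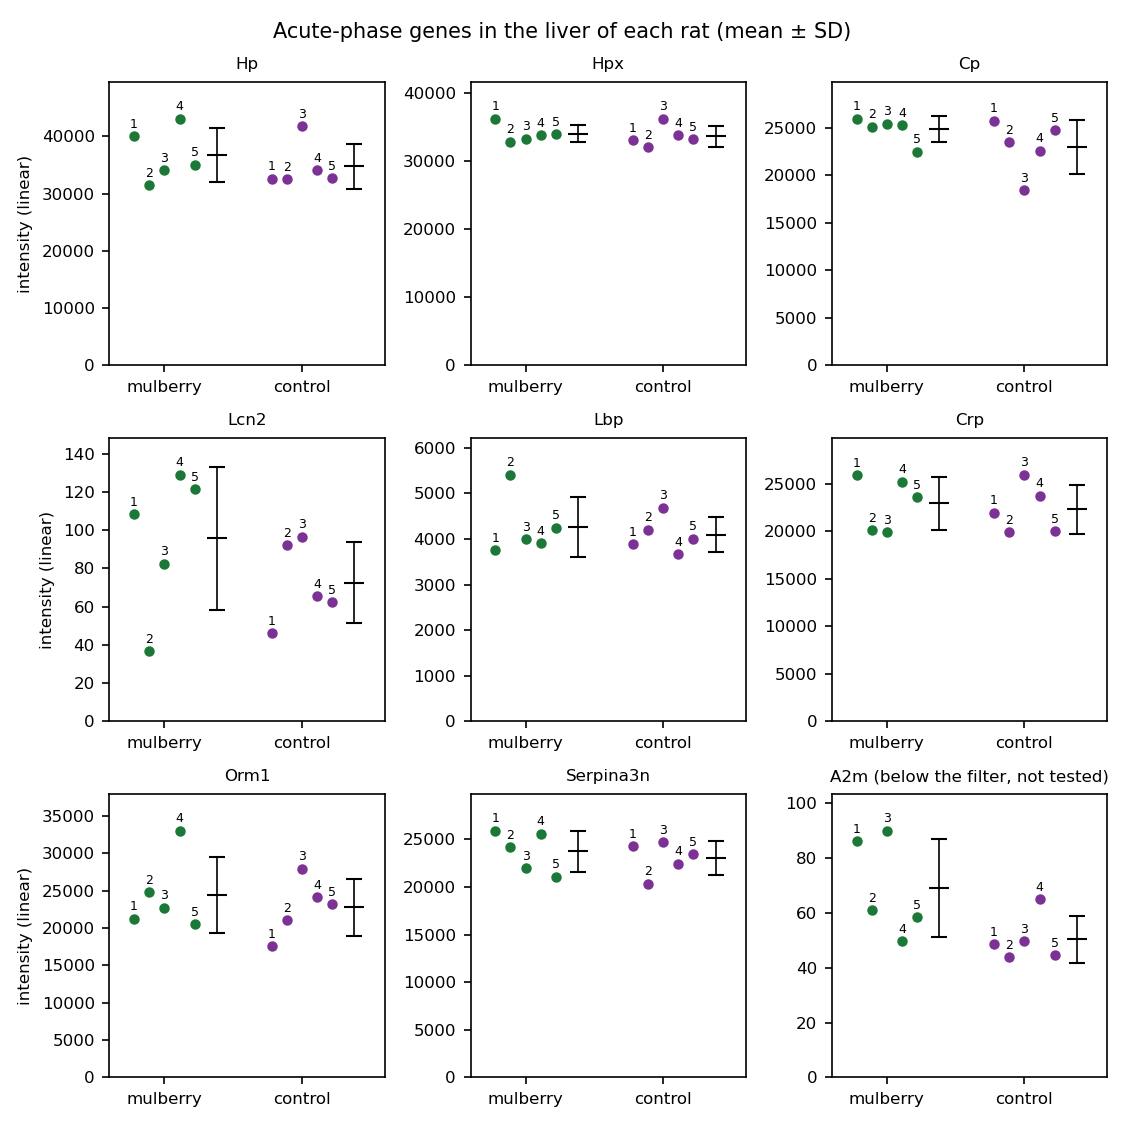
Linear intensity of 9 acute-phase genes (vertical axes, each from 0) in mulberry rats (green, left) and control rats (purple, right), on the brightest probe set of each gene. Numbers above points are rat numbers, and bars beside each group are the mean ± SD (n = 5). The groups overlap in every panel, and mulberry rats 1 and 4 and control rat 3 are the 3 highest for Hp and for Crp.

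Proteins that clear haemoglobin, haem and metals from plasma are given first. Haptoglobin (Hp, probe set 1370148_at) binds free haemoglobin and delivers it to macrophages. Its intensity was 39986, 31484, 34139, 43104 and 35072 in mulberry rats 1 to 5, against 32630, 32545, 41739.6, 34139 and 32684 in control rats 1 to 5. Mulberry rats 1 and 4 and control rat 3 stood above the other 7 rats, and the groups overlapped throughout. The means were 36757 ± 4696 in mulberry and 34748 ± 3964 in control rats (SD, n = 5 each). The log2 difference was +0.079 ± 0.099 (SE), a fold of 1.06 with a 95% interval from 0.911 to 1.22.

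Hemopexin (Hpx, 1370065_at) binds free haem and carries it to hepatocytes. It was measured at 36250.0, 32862, 33312, 33800.1 and 33996 in mulberry rats, against 33071, 32054, 36209.6, 33821 and 33201 in control rats. These values were the tightest of the group, with a within-group SD of 0.060 on the log2 scale, against a median of 0.26 over all probe sets tested. For 7 of the 8 genes tested, Lcn2 being the exception, this SD lay below that median. The median covers bright and dim probe sets alike, and the comparison was not matched for intensity. It therefore does not show a trait particular to these genes. By another measure, the SE of the difference, Hpx was at 0.060, and 9 hepatocyte markers ran from 0.067 for Cps1 to 0.23 for Tat. For Hpx, mulberry rat 1 and control rat 3 were the highest. The log2 difference was +0.016 ± 0.060 (SE), with a 95% interval of the fold from 0.924 to 1.11.

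Ceruloplasmin (Cp) is a copper-carrying ferroxidase that loads iron onto transferrin, and 3 probe sets measure it. On the brightest (1368420_at), mulberry rats had 25958, 25099, 25403, 25292 and 22477, against 25716, 23469, 18397, 22587 and 24767 in control rats. Mulberry rat 5 and control rat 3 were the lowest of their groups. The means were 24846 ± 1362 in mulberry and 22987 ± 2832 in control rats (SD, n = 5 each), and the log2 difference of +0.12 ± 0.091 (SE) had the smallest unadjusted limma p of the 10 acute-phase probe sets tested, 0.209. Without control rat 3 the difference was +0.042, with weights for each array +0.054, and without mulberry rats 1 and 4 and control rat 3 together +0.011.

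The other bright probe set of Cp (1368418_a_at) ran alongside, with 21273, 19075, 18612, 20993 and 14852 in mulberry rats, against 19462, 16653, 11323, 18880.0 and 18749 in control rats. The same 2 rats were lowest, and the log2 difference was +0.17 ± 0.15 (SE). The dimmest (1368419_at) had the opposite sign, at -0.057 ± 0.14 (SE), with means of 1319.7 ± 304.2 in mulberry and 1349 ± 91.8 in control rats (SD, n = 5 each). On that probe set mulberry rat 2 was the highest and mulberry rat 4 the lowest of all 10.

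**Figure D2:**
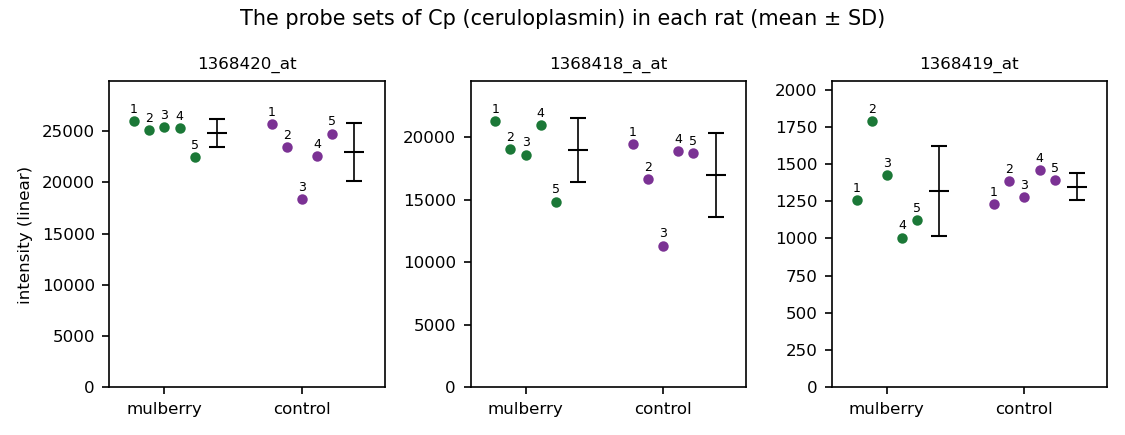
Linear intensity (vertical axes, each from 0) of the 3 probe sets of Cp in mulberry rats (green, left) and control rats (purple, right), numbered by rat, with the mean ± SD (n = 5) beside each group. Control rat 3 and mulberry rat 5 are the lowest of their groups on both bright probe sets and not on the dim one.

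Proteins that bind bacterial products followed. Lipocalin 2 (Lcn2, 1387011_at) withholds iron from bacteria by binding their siderophores, and is made by hepatocytes in inflammation and stored in neutrophil granules. Its intensity was 109, 36.8, 82.5, 129 and 122 in mulberry rats, against 46.2, 92.3, 96.6, 65.5 and 62.5 in control rats. These are dim values, near the filter level of 61.1, and 2 rats lay at or below it. Mulberry rats 1, 4 and 5 lay above every control rat, while mulberry rat 2 was the lowest of all 10. Lcn2 spread most between rats, with a 3.51-fold range over the 10 animals. The log2 difference of +0.28 ± 0.29 (SE) gave a fold of 1.22 with a 95% interval from 0.793 to 1.87, which holds both lower and higher levels.

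Of 9 neutrophil markers, 2 passed the filter, S100a9 and S100a8, the subunits of calprotectin, 4 were under it (Camp, Csf3r, Cxcr2 and Mmp8) and 3 were not found by symbol. S100a9 and S100a8 had lower means in mulberry rats, with log2 differences of -0.77 ± 0.19 and -0.62 ± 0.27 (SE), the opposite sign to Lcn2. Neither passed the limma test (adjusted p = 0.9999 for both, unadjusted p = 0.00136 and 0.0389). S100a8 was dim, with a mean of 54.4 in mulberry rats, under the filter level of 61.1, and of 86.3 in control rats. The summed intensity of both genes ran from 114 to 273 in mulberry rats and from 268 to 365 in control rats. Their part in the Lcn2 values was not tested.

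Lipopolysaccharide-binding protein (Lbp, 1387868_at) hands bacterial lipopolysaccharide to CD14. It was measured at 3755, 5411, 3999, 3911 and 4244 in mulberry rats, against 3883, 4205, 4683, 3664 and 4007 in control rats. Mulberry rat 2 was the highest, and without it the difference changed from +0.053 ± 0.11 (SE) to -0.036. The means were 4264 ± 665 in mulberry and 4088 ± 386 in control rats (SD, n = 5 each).

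C-reactive protein (Crp, 1387830_at), a pentraxin that binds phosphocholine on microbes and dying cells, had intensities of 25930.3, 20154, 19923, 25216 and 23567 in mulberry rats, against 21950.0, 19947, 25979, 23739.8 and 20038 in control rats. Mulberry rats 1 and 4 and control rat 3 were again the highest. The means of 22958 ± 2801 in mulberry and 22331 ± 2568 in control rats (SD, n = 5 each) differed by +0.039 ± 0.10 (SE, log2), and the sign turned without mulberry rat 1 (-0.0074) or control rat 2 (-0.00016).

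Binding proteins and protease inhibitors made up the rest. Alpha-1-acid glycoprotein (Orm1, 1368731_at), which binds drugs and lipids, had 21251, 24841, 22738, 33065 and 20489 in mulberry rats, against 17542, 21097, 27961, 24106 and 23244 in control rats. Mulberry rat 4 was far above the other mulberry rats, and control rat 1 was the lowest of all. The log2 difference was +0.098 ± 0.14 (SE), a fold of 1.07 (95% interval 0.865 to 1.32), and without mulberry rat 4 it was -0.016.

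Serpina3n (1368224_at), a serine protease inhibitor related to antichymotrypsin, had 25925, 24149, 21998, 25584 and 21095 in mulberry rats, against 24292, 20347, 24707, 22431 and 23475 in control rats. Mulberry rat 1 was the highest and control rat 2 the lowest, and without control rat 2 the difference of +0.042 ± 0.082 (SE, log2) turned to -0.0023. Alpha-2-macroglobulin (A2m, 1367794_at), a protease trap, was under the filter level of 61.1 in 7 of 10 rats and was left out of the test. Its dim values were 86.1, 60.9, 89.9, 49.7 and 58.4 in mulberry rats, against 48.6, 43.8, 49.6, 65.0 and 44.4 in control rats. All 5 mulberry rats lay above the control median of 48.6, and mulberry rats 1 and 3 lay above every control rat. In the fit without a filter the log2 difference was +0.34 ± 0.21 (SE), a fold of 1.27 with a 95% interval from 0.921 to 1.75 (limma adjusted p = 0.9999), and the exact permutation test gave an unadjusted p of 0.0714.

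**Figure D3:**
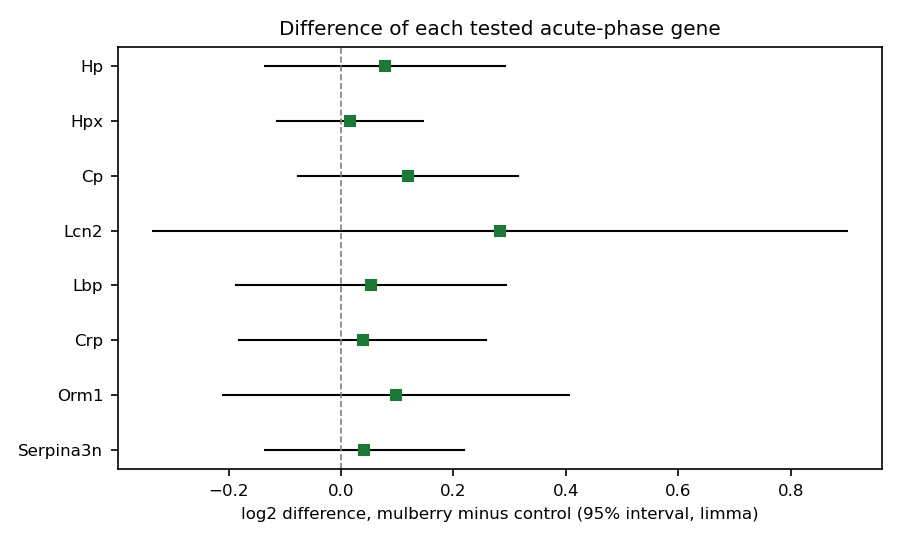
Log2 difference in intensity, mulberry minus control (horizontal axis), for the 8 acute-phase genes tested (rows), with squares for the estimate and lines for the 95% interval of the limma fit on 5 and 5 rats. Every interval crosses 0, the narrowest for Hpx and the widest for Lcn2.

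Some genes went up and down together from rat to rat. Of 28 pairs among the 8 tested genes, 2 passed a Benjamini-Hochberg adjusted p of 0.05 for Pearson's r over 10 rats in a permutation test with 100000 resamples, Hpx with Crp (adjusted p = 0.00812) and Hp with Crp (adjusted p = 0.00994). With Spearman's rho 0 pairs passed, and those 2 had adjusted p of 0.0962 and 0.166. For Hp the rats fell into 2 sets, with mulberry rats 1 and 4 and control rat 3 between 39986 and 43104 and the other 7 between 31484 and 35072, so r is given within the 7. There r was 0.74 for Hpx with Crp (permutation p = 0.0607, adjusted p = 0.425, rho 0.50 with permutation p = 0.269) and 0.64 for Hp with Crp (permutation p = 0.145, adjusted p = 0.456, rho 0.21 with permutation p = 0.663). Without those 3 rats 0 of 28 pairs passed. Leaving out single rats also ended calls, with 0 pairs past the threshold without control rat 2 and 1 pair without control rat 5 or mulberry rat 2.

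The same 3 arrays were also the brightest at their top end, and some genes of the opposite class were highest on them. Their highest intensity was 48981 and 49485 in mulberry rats 1 and 4 and 48817 in control rat 3, against 40721 to 44767 on the other 7 arrays. By the 99th percentile the order was not the same, with 15286 and 14688 in mulberry rats 1 and 4, against 15714 in control rat 3 and 15053 in control rat 4. Albumin (Alb), a negative acute-phase protein, stood at 36339 and 40663 in mulberry rats 1 and 4 and at 40742 in control rat 3, against 26591 to 29272 in the other 7 rats. Fetuin-A (Ahsg), another negative acute-phase protein, had 37878, 38752 and 36964 in those 3 rats, against 31212 to 33422 in the others. Alb and Ahsg were chosen after their values were seen. Of 15 negative acute-phase genes tested, 7 were higher in each of those 3 rats than in any of the other 7 (Alb, Ahsg, Rbp4, Serpina6, Gc, Ttr and Apoa1) and 8 were not. Of 22 other positive acute-phase genes, 6 were highest in the 3 rats in this way and 16 were not. Of 9 hepatocyte markers, partly the same genes, 6 were and 3 were not, and of 9 Kupffer cell and macrophage markers 0 were. The share over all probe sets tested was not counted, and the 3 rats were picked by their Hp values. These counts therefore do not show a pattern particular to acute-phase genes. Among the 8 negative genes that were not, the 3 rats were split for Igf1, Itih2, Apoa4 and Serpina7, and also for others, such as Mug1, Fetub and Itih1. In control rat 3, Igf1 and Itih2 were lowest of the control rats, at 26461 and 17085. Yet Igf1 was highest of all in mulberry rat 4 (31723) and Itih2 in mulberry rat 1 (20287). In mulberry rat 4, Apoa4 and Serpina7 were lowest of the mulberry rats, at 15996 and 479. Yet both were highest of the control rats in control rat 3, at 19120 and 1546.

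After quantile normalization, which gives every array the same set of values so that the brightest probe sets can only trade places, the pattern differed by gene. Hp remained higher in those 3 rats, at 0.029 to 0.11 above the median on the log2 scale, against -0.039 to 0.0082 in the other 7. Hpx became lower there, at -0.18 to -0.060, against -0.0080 to 0.060 in the other 7. Alb remained higher in the 3, at 0.14 to 0.25, against -0.13 to 0.026 in the other 7. For Crp (0.0089 to 0.070 in the 3, against -0.13 to 0.046) and Ahsg (-0.013 to 0.027 in the 3, against -0.041 to 0.014) the 3 rats overlapped the other 7. Neither Crp pair passed (r = -0.50 for Hpx with Crp, r = 0.51 for Hp with Crp, adjusted p = 0.302 for both by permutation), and the pair that did was Hpx with Hp, with a negative r of -0.91 (permutation adjusted p = 0.00532). As deposited, Hpx with Hp had a positive r of 0.76 (permutation adjusted p = 0.133), so the sign of this pair turned with the scaling. The part of the arrays' top end in the shared pattern was not tested.

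**Figure D4:**
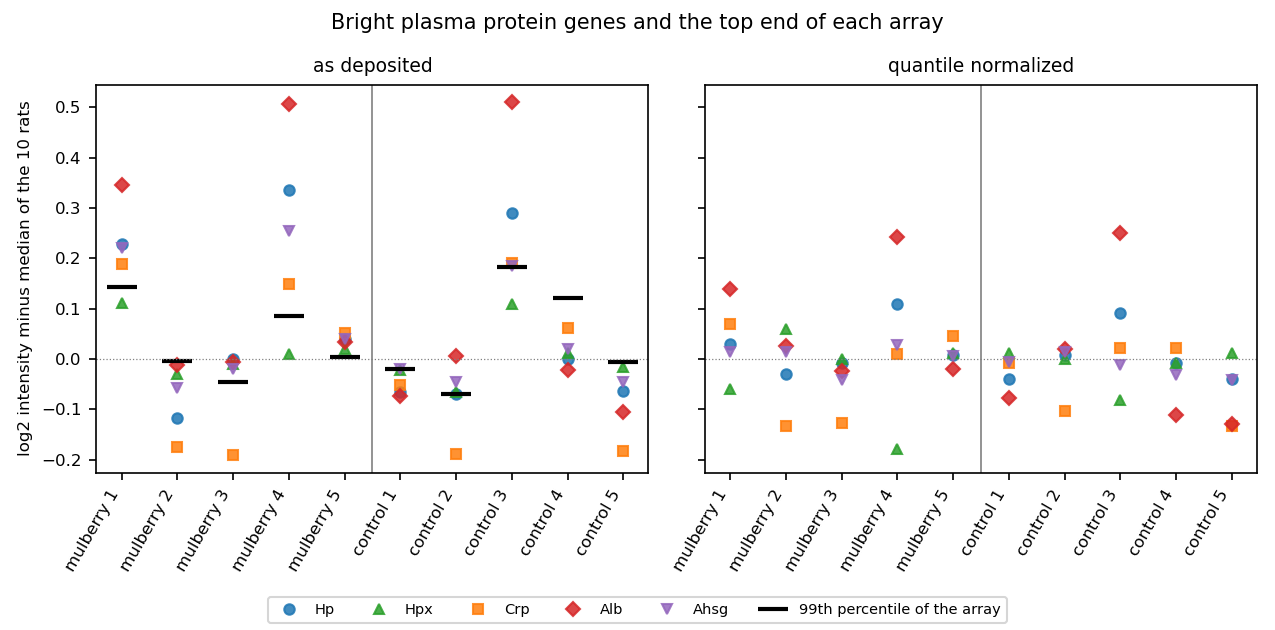
Log2 intensity minus the median of the 10 rats (vertical axis) for Hp, Hpx, Crp, Alb and Ahsg in each rat (horizontal axis, mulberry rats left), as deposited and after quantile normalization. Black bars mark the 99th percentile of each array as deposited. Mulberry rats 1 and 4 and control rat 3 are high for Hp, Crp, Alb and Ahsg as deposited, and Hpx is below its median in the same 3 rats after quantile normalization.

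Lcn2 was in 0 of the pairs that passed over the 10 rats as deposited. Its highest r with another acute-phase gene was 0.73, with Hp (permutation adjusted p = 0.138). After quantile normalization the r of Lcn2 with Hp was 0.76 (permutation adjusted p = 0.151). Among 10327 other genes, those whose levels over the 10 rats were most like Lcn2 were Arhgef17 (Pearson's r 0.92), Acss1 (0.90), Spire1 (0.90), Col22a1 (0.89) and Sult5a1 (0.89), as a description over 10 rats that share arrays and scaling. Arhgef17 ran from 51.4 in mulberry rat 2 to 124 in mulberry rat 4, dim like Lcn2, and its adjusted limma p was 0.9999.

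Upstream of these proteins, cytokines, receptors and signal transducers had lower means in 13 and higher means in 6 of 19 tested genes, and 0 passed the test, where here and below such counts go by means on the log2 scale. The median log2 difference was -0.044. The cytokine genes Il6, Tnf, Osm and Lif and the receptor gene Lifr were on the array but under the filter. The 3 genes with the smallest unadjusted p were Cebpb, a C/EBP factor, at 3519 ± 843 in mulberry and 4330.3 ± 666 in control rats (-0.32 ± 0.17), the receptor kinase gene Jak1 at 6534 ± 152 in mulberry and 5963 ± 456 in control rats (+0.13 ± 0.077), and the NF-kB inhibitor gene Nfkbia at 1881 ± 372 in mulberry and 2173 ± 309 in control rats (-0.22 ± 0.16). Means printed here and below are intensities with the SD (n = 5 each), and differences in parentheses are log2 with the SE. For Jak1, 4 of 5 control rats lay under the lowest mulberry rat, and control rat 5 lay above 3 mulberry rats. Of 9 glucocorticoid-responsive genes, 7 were lower in mulberry rats on the log2 scale (median -0.097, 0 passed). Those with the smallest unadjusted p, 0.42 to 0.459, were the gene of the glucocorticoid-regenerating enzyme, Hsd11b1 (-0.097 ± 0.12), the glucocorticoid receptor chaperone gene Fkbp5 (-0.21 ± 0.27) and the clock gene Per1 (-0.24 ± 0.32).

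Other positive acute-phase proteins had higher means in 16 of 22 tested genes, with a median log2 difference of +0.041, and 0 passed the test. At an unadjusted p under 0.05 there were 2 of 22, in opposite directions, against 1.74% of all probe sets tested. Lgals3bp, a secreted protein that binds galectins, measured 655, 667, 652, 512 and 673 in mulberry rats, against 466.0, 447, 523, 434 and 354 in control rats (+0.50 ± 0.13, limma adjusted p = 0.9999, unadjusted exact permutation p = 0.0159), and only mulberry rat 4 fell within the control range. Cd14, the receptor that takes lipopolysaccharide from Lbp, was at 5095.0, 3335, 3503, 3016 and 4242 in mulberry rats, against 5174, 4122, 5677, 5388 and 4327 in control rats (-0.38 ± 0.15, limma adjusted p = 0.9999), and mulberry rats 2, 3 and 4 lay under every control rat. Il1rn, which encodes the interleukin-1 receptor antagonist, was at -0.45 ± 0.23.

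Negative acute-phase proteins also had higher means in most cases, 13 of 15 (median +0.049, 0 passed), so the positive and the negative list lay on the same side of 0. The 3 with the smallest p were Mug1, a rat murinoglobulin, at 16778 ± 2387 in mulberry and 14478 ± 2115 in control rats (+0.21 ± 0.12), the growth factor gene Igf1 at 28967 ± 2177 in mulberry and 27129 ± 662 in control rats (+0.092 ± 0.066), and the thyroxine-binding globulin gene Serpina7 at 1385 ± 649 in mulberry and 953 ± 408 in control rats (+0.48 ± 0.39). Receptors and partners of the plasma proteins were split, with 7 of 12 higher (median +0.019, 0 passed). They held the iron exporter gene Slc40a1, the partner of ceruloplasmin, at 4403 ± 778 in mulberry and 3780.4 ± 373 in control rats (+0.21 ± 0.13), the Fc receptor gene Fcgr3a (+0.30 ± 0.24) and the endocytic receptor gene Lrp2 (+0.19 ± 0.22).

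Of 10 hepatocyte markers, 9 were found by symbol, and these 9 passed the filter. The filter kept 18625 of 31042 probe sets, among them 6 of 6 endothelial and 6 of 6 stellate cell markers. Passing it therefore does not identify the tissue. Alb lay between 26591 and 40742 over the 10 arrays. Summed hepatocyte markers ran from 208537 to 252447 in mulberry and from 210412 to 252099 in control rats. The median intensity of an array was between 97.5 and 118, and the 99th percentile between 13190.5 and 15714.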

How the data were processed

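The authors deposited linear signal intensity values, for 31099 probe sets on each array, and the submitters' processing notes name MAS5 and affy without a role or version. The mean after trimming 2% at each end was the same on every array, so the intensity values were taken as already scaled between arrays. Depth has no meaning for arrays, and their number, 5 per group, limits the precision. Without 57 control probe sets, log2(intensity + 16) was computed, which understates differences of dim probe sets, and the dimmest probe sets, up to the 40th percentile of their mean over all arrays (log2 6.27, intensity 61.1), were left out. Groups and rat numbers came from the sample titles. limma 3.58.1 in R 4.3.3 (lmFit, eBayes with a variance trend, two-sided, no covariates) compared mulberry with control rats, with Benjamini-Hochberg adjustment over the 18625 probe sets left and a threshold of 0.05. The code was tested on simulated data. Single genes were also put to an exact permutation test (two-sided), and pairs of genes by Pearson's r and Spearman's rho (Python 3.11.15, scipy 1.17.1). Gene names came from the platform annotation, checked against RefSeq by Entrez identifier for 20758 of 20826 probe sets with 1 symbol, and 0 symbols changed. Where a gene has several probe sets, the brightest tested one stands for it, and the text names all members, the 3 genes per list with the smallest p, the pairs past the threshold and the 5 genes most like the member with the widest range. The members, lists and alternative settings were chosen with earlier results of these data known.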

Additional observations from a re-analysis of the deposited data

Results flagged for a closer look

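Of 22 groups of 5 rats, 3 held a rat set apart from the others by a gap of more than 0.71 of the group's range, where chance flags about 1 in 20 groups. The 22 groups come from 11 probe sets, 3 of them for Cp, read on the same 10 rats, so they are not independent. On the brightest probe set of Cp, mulberry rat 5 was the lowest at 22477, against 25099 to 25958 in the other mulberry rats. On the other bright probe set of Cp, control rat 3 was the lowest at 11323, against 16653 to 19462 in the other control rats. For Hp, control rat 3 was the highest at 41739.6, against 32545 to 34139 in the other control rats.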

How the results depend on the processing

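Under 21 alternatives of the fit (other pseudocounts of 1 and 64, filters, scalings, variance and weight settings, 1 probe set per gene, a replicate block, each rat left out in turn, and, chosen after seeing the data, mulberry rats 1 and 4 and control rat 3 left out together), limma called 0 probe sets and 0 of the acute-phase genes. Between 171 and 878 probe sets had an unadjusted p under 0.05, the highest without a filter. The median difference of the acute-phase genes stayed between 0.019 (without mulberry rat 4) and 0.099 (without control rat 3). The number of correlated pairs, 2 as reported, was 1 after quantile normalization, 0 with Spearman's rho, 0 without the 3 rats together and between 0 and 3 with 1 rat left out, with 0 without control rat 2 and 1 without control rat 5 or mulberry rat 2. The cause was not tested, beyond the smaller number of rats.

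Of 177 values of single genes under an alternative, 165 kept their sign, 12 turned it and 0 passed the threshold. Part of the 165 could not turn, because some settings leave the difference of a gene unchanged. These were the other filters, no variance trend, 1 probe set per gene, the replicate block and the exact permutation test. Those that turned were Hpx after quantile normalization (-0.020) and a median shift (-0.011), Cp on its dimmest probe set (-0.057), and, without the 3 rats together, Serpina3n (-0.013) and Crp (-0.014). With 1 rat left out the differences ranged from -0.0023 to 0.083 for Serpina3n, -0.016 to 0.18 for Orm1, -0.0066 to 0.043 for Hpx, -0.0074 to 0.095 for Crp and -0.036 to 0.10 for Lbp. Cp, Hp and Lcn2 kept their sign there, from 0.042 to 0.16, from 0.019 to 0.15 and from 0.16 to 0.53.

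Rats of the 2 groups share numbers, but the numbers did not pair them: the deviations of same-numbered rats correlated between -0.33 and 0.096, and 1 of 5 mulberry rats correlated best with the control rat of its own number. With the rat number as a block, 0 probe sets were called and 3 pairs were correlated. The median difference was 0.066, which a block cannot change where each number occurs once per group. Intensities near the filter level limit what can be said of Lcn2, A2m and S100a8.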

Other observations

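Markers of other liver cells gave these values, with 0 genes past the limma test in each list. Kupffer cell and macrophage markers had higher means on the log2 scale in mulberry rats in 7 of 9 cases (median +0.12), with a summed intensity from 9315 to 27424 in mulberry and from 15483 to 22764 in control rats. At an unadjusted limma p under 0.05 there was 1 of 9, against 1.74% of all probe sets tested. It was Cd68, higher in mulberry rats (+0.39 ± 0.18, limma adjusted p = 0.9999). The 2 lower ones were Csf1r (-0.018 ± 0.21) and Lyz2, the largest difference of the list (-0.96 ± 0.53). Lyz2 is part of the sum and ran from 1211 to 10124 in mulberry and from 2702 to 11302 in control rats. Endothelial markers were higher in 5 of 6 cases (median +0.046) and stellate cell markers in 4 of 6 (median +0.14). Lymphocyte markers were higher in 1 of 3 cases (median -0.012), bile duct markers in 1 of 2 (-0.060), red blood cell markers in 2 of 3 (+0.048), pancreatic acinar genes in 1 of 2 (-0.013), and the adipocyte gene tested, Cfd, was at +0.24.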
